A study of Mus musculus with 6 samples.

Results

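The genes described here are 9 genes of the complement system, C1qa, C1qb, C1qc, C1ra, C1rb, C1s, C2, C3 and C4b, taken by symbol from a table of 26743 genes measured in mouse testis. They were chosen on their higher counts in Trf2-/- testes in these same libraries, and because 1 mutant mouse was seen to hold much of the rise in C3. Their difference between genotypes is therefore given as a description, and any count of them past a threshold is set beside the share of all genes past it and supports nothing. All 9 were in the table and all 9 passed the filter on low counts that left 16924 genes. C1rb passed it only through the Trf2-/- mice, where it is high.

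Complement is a cascade of plasma and tissue proteins that tags microbes, debris and dying cells for removal. In the classical pathway, the recognition molecule C1q, built from A, B and C chains encoded by C1qa, C1qb and C1qc, binds a target and switches on the serine proteases C1r and C1s. C1s then cuts C4 and C2 into the convertase that splits C3, the protein on which the classical, lectin and alternative pathways meet, and whose fragments coat the target. Tissue macrophages are a well known source of C1q, fibroblasts and epithelia make C1r, C1s and C3, and the liver supplies most of the C3 and C4 in plasma.

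The study sequenced RNA from whole testes of 3 wild type (WT) and 3 Trf2-/- male mice, all at postnatal day 21. Trf2-/- stands for loss of both copies of the gene for the TBP-related factor TRF2, which the table lists as Tbpl1, in the whole animal rather than in 1 cell type. No other allele, treatment or strain background is given in the labels, and the WT mice carry no deletion named there. Whole testis mixes germ cells with Sertoli, Leydig, peritubular, endothelial and immune cells, so a change in the number of cells of a type and a change in RNA per cell cannot be told apart in any value below.

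Levels are given as CPM, counts scaled to a common library size, after correction by the trimmed mean of M values (TMM), so that libraries of different size and composition can be set side by side. The libraries held 15187062 to 29859347 counts on genes, and 3 counts corresponded to 0.105 to 0.19 CPM. Tbpl1 was at 283 to 308 CPM in the WT mice and 55.8 to 64.3 CPM in the Trf2-/- mice (log2 fold change -2.27 ± 0.06, SE, adjusted p = 1.18e-06 by edgeR's quasi-likelihood test), in the direction the labels give. The 8 round spermatid markers listed were lower in Trf2-/- testes by a median log2 fold change of -1.65 (-1.84 without Trf2-/- mouse 1). Of these, 7 had an adjusted p under 0.05 by edgeR, and 6 without that mouse, beside 20.2% and 17.2% of all tested genes lower. Trf2-/- mouse 1 stood apart from the other 5 mice for the complement genes and for several lists of other genes, so most fold changes and counts below are followed by their values without it.

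**Figure D1:**
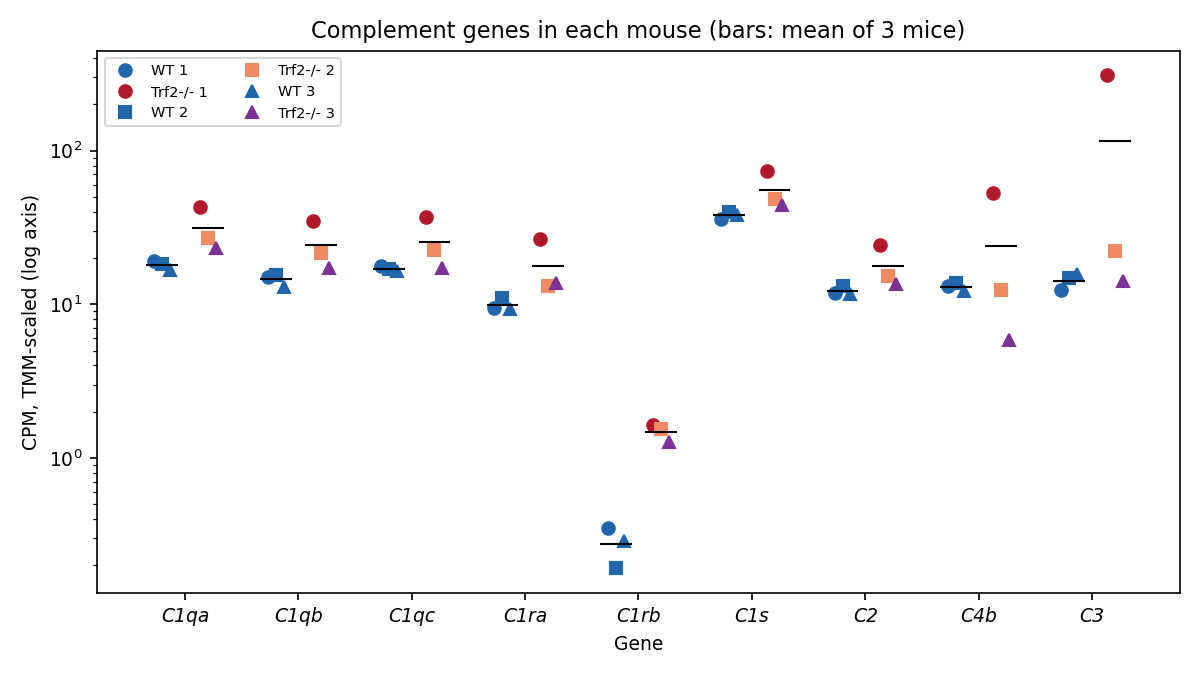
Level of each complement gene in CPM on a log axis for the 3 WT mice (blue) and the 3 Trf2-/- mice (red, orange and purple), with horizontal bars at the mean of each genotype. Trf2-/- mouse 1 is the highest mouse for all 9 genes, and C1rb is the gene for which the 3 Trf2-/- mice lie together well above the WT mice.

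The 3 chains of C1q are encoded side by side on the minus strand of chromosome 4, within 18675 bases (NCBIM37; C1qb chr4:136436044-136442102, C1qc chr4:136445719-136448980, C1qa chr4:136451832-136454718). C1qa, the A chain, was at 19, 18.4 and 16.8 CPM in WT mice 1 to 3 and at 43.1, 27.0 and 23.4 CPM in Trf2-/- mice 1 to 3. All Trf2-/- mice lay above all WT mice, and mouse 1 stood well above the other mutants. C1qb, the B chain, was at 15.1, 15.6 and 13 CPM in WT and 34.7, 21.5 and 17.3 CPM in Trf2-/- mice, again without overlap. C1qc, the C chain, was at 17.6, 16.9 and 16.4 CPM in WT and 37.1, 22.4 and 17.3 CPM in Trf2-/- mice. Here the genotypes overlapped, since Trf2-/- mouse 3 lay just under the highest WT mouse. The fitted log2 fold changes were 0.79 ± 0.20 (SE, n = 3 per genotype) for C1qa, 0.76 ± 0.22 for C1qb and 0.60 ± 0.23 for C1qc. Without Trf2-/- mouse 1 they were 0.47 ± 0.10, 0.41 ± 0.13 and 0.22 ± 0.12.

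The C1q chains kept similar proportions in the 6 mice, with a small shift between genotypes. Divided by gene length, C1qa made up 43.4 to 44.3% of the 3 chains in WT mice and 44.8, 45.3 and 47.6% in Trf2-/- mice 1 to 3. C1qc made up 21.5 to 23.2% in WT mice and 20.7, 20.2 and 18.9% in Trf2-/- mice. Neither share overlapped between genotypes, while C1qb made up 32.7 to 35.1% over all 6 mice. The size of each share depends on the gene length used, 1931 bases for C1qc, whose longest protein-coding transcript had 1203. The summed level of the 3 chains was 51.7, 50.9 and 46.3 CPM in WT mice (mean 49.7 ± 2.93, SD, n = 3). It was 115, 71.0 and 57.9 CPM in Trf2-/- mice (81.2 ± 29.8), so that the mutants differed from each other far more than the WT mice did.

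C1r and C1s are encoded together on chromosome 6, within 124576 bases, with C1ra (chr6:124462423-124473458) and C1rb (chr6:124462790-124531062) on the plus strand and C1s (chr6:124480363-124586998) on the minus strand. The mouse has a pair of C1r genes. C1ra was at 9.41, 10.9 and 9.26 CPM in WT mice and 26.5, 13.3 and 13.7 CPM in Trf2-/- mice (log2 fold change 0.86 ± 0.25, and 0.43 ± 0.11 without mouse 1). C1s, the protease that cuts C4 and C2, was at 36.1, 39.6 and 38.0 CPM in WT and 73.8, 48.4 and 44.0 CPM in Trf2-/- mice (0.55 ± 0.17, and 0.27 ± 0.08 without mouse 1). For both genes the genotypes did not overlap, with Trf2-/- mouse 1 again far above the other mutants. Of the 50-base stretches of C1s, 24.3% also occur in another gene's transcript, chiefly the gene model Gm5077, so part of its count depends on how shared reads were assigned.

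C1rb differed from the other 8 genes in that all 3 mutants were at least 2-fold above the WT mean. It had 10, 5 and 6 counts in WT mice and 41, 36 and 20 counts in Trf2-/- mice, that is 0.348, 0.192 and 0.288 CPM against 1.63, 1.54 and 1.26 CPM. The Trf2-/- mice stood 5.90-, 5.59- and 4.58-fold above the WT mean, and the coefficient of variation among them was 12.8%, the lowest among the 9 genes, whose other values ran from 29.0% to 146%. At 20 to 41 counts sampling alone can spread values this much, so no closer agreement between mice is read from it. The log2 fold change was 2.41 ± 0.29 and stayed at 2.32 ± 0.34 without Trf2-/- mouse 1. These are low counts, and C1ra and C1rb resemble each other, since 60.7% of the 50-base stretches of the C1rb transcript, the length of the reads, also occur in another gene's transcript, chiefly that of C1ra, against 47.5% for C1ra. How the counting split reads between them is uncertain. Added together, C1ra and C1rb were at 9.55 to 11.1 CPM in WT mice and 28.1, 14.8 and 15.0 CPM in Trf2-/- mice, and C1rb made up 1.72 to 3.57% of that sum in WT mice and 5.78, 10.4 and 8.44% in the mutants.

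C2 and C4b lie within 169886 bases on chromosome 17, both on the minus strand (C4b chr17:34865325-34880827, C2 chr17:34993357-35035210). C2, the protease part of the classical convertase, was at 11.8, 13.1 and 11.6 CPM in WT mice and 24.3, 15.4 and 13.5 CPM in Trf2-/- mice. No mutant overlapped with the WT mice, although mice 2 and 3 were only a little above them. Its log2 fold change was 0.55 ± 0.20, and 0.24 ± 0.11 without mouse 1. Of the 50-base stretches of C2, 58% also occur in another gene's transcript, chiefly a readthrough gene model, Gm20547, that joins it to the neighbouring gene Cfb. The counts of C2 therefore depend on how such reads were assigned.

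C4b, the gene for the C4 protein that C1s cuts, was at 13.2, 13.8 and 12.2 CPM in WT mice and 53.3, 12.5 and 5.88 CPM in Trf2-/- mice, from 378, 359 and 255 counts against 1343, 291 and 93 counts. The mutants thus fell on both sides of the WT mice, with mouse 1 at 4.08-fold the WT mean, mouse 2 among the WT values and mouse 3 below every WT mouse. Its fitted log2 fold change was 0.90 ± 0.62 with all mice and -0.48 ± 0.26 without Trf2-/- mouse 1, so that 1 mouse set its direction. C4a, a near copy of C4b (35.2% of the 50-base stretches of C4b are shared, chiefly with C4a), was at 7.15 to 8.20 CPM in WT and 6.03, 7.08 and 7.90 CPM in Trf2-/- mice (log2 fold change -0.16 ± 0.13, adjusted p = 0.37 by edgeR). The ratio of C4b to C4a was 1.65 to 1.71 in the WT mice and 8.84, 1.76 and 0.744 in Trf2-/- mice 1 to 3, so the spread of C4b among the mutants was not shared by its copy. How reads common to both were counted is uncertain.

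C3 (chr17:57343393-57367559, minus strand) was at 12.3, 14.7 and 15.7 CPM in WT mice and 309, 22.3 and 14.2 CPM in Trf2-/- mice, from 354, 385 and 328 counts against 7786, 521 and 225 counts. Trf2-/- mouse 1 stood 21.6-fold above the WT mean, mouse 2 at 1.57-fold and mouse 3 at 0.997-fold, inside the WT range. The fitted log2 fold change of 3.04 ± 1.02 therefore described mainly 1 library. It was 0.37 ± 0.20 without that mouse. C3 took 51.2% of all reads on the 9 genes in Trf2-/- mouse 1, against 9.15 to 12.1% in the other 5 mice. In that mouse, C3 was 5.80 times C4b and 2.69 times the C1q sum in CPM, while in the WT mice these ratios were 0.937 to 1.29 and 0.239 to 0.34. No 50-base stretch of C3, C1qa, C1qb or C1qc was shared with a protein-coding transcript of another gene. Sharing with pseudogenes and other noncoding transcripts was not searched.

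**Figure D2:**
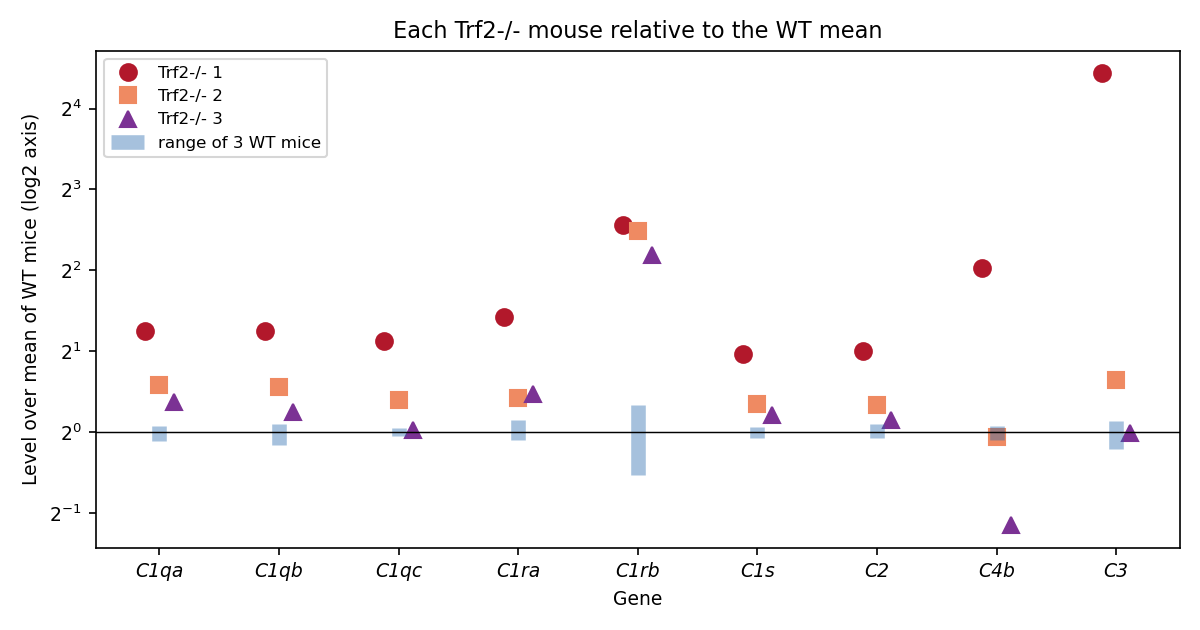
Level in each Trf2-/- mouse divided by the mean of the WT mice, on a log2 axis, with blue bars for the range of the 3 WT mice. Mouse 1 (red circles) ranges from 1.95-fold for C1s to 21.6-fold for C3, while mice 2 and 3 reach 2-fold for C1rb alone and mouse 3 falls to 0.45-fold for C4b.

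Set side by side, the genes had in common the mouse in which they were highest. For 6 of them the genotypes also did not overlap, which is given below beside the share of all tested genes. Trf2-/- mouse 1 was the highest of the 6 mice for 9 of 9 genes, where it was the highest for 17.7% of all tested genes. It was at least 2-fold above the WT mean for 7 of 9, against 2.28% of all tested genes, and C2 at 1.997-fold and C1s at 1.95-fold lay just under that mark. Trf2-/- mice 2 and 3 were at least 2-fold above the WT mean for 1 gene each, C1rb in both, against 0.898% and 1.1% of all tested genes. Mouse 2 was above every WT mouse for 8 of the genes and mouse 3 for 6, as these mice were for 35% and 42.6% of all tested genes. Taken gene by gene against the mean of the WT mice, the median log2 difference was 1.25 in mouse 1, 0.43 in mouse 2 and 0.22 in mouse 3.

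All 9 fitted log2 fold changes were above 0, as were 54.9% of those of all tested genes, and their median was 0.79 against 0.04 over all tested genes. Since the genes were chosen on this difference, nothing is read from these counts. C1rb and C3 fell past the threshold used here (adjusted p under 0.05 by edgeR and at least 2-fold), which 0.609% of tested genes met in the higher direction and 4.3% in the lower. C1rb, with 10, 5 and 6 counts in WT mice, entered the test only through the Trf2-/- mice. Its call in any fit therefore supports nothing. That count of 2 was 1 without Trf2-/- mouse 1 (C1rb) or with any single WT mouse left out, and 4 without Trf2-/- mouse 3. With the adjusted p alone, 6 genes (C1qa, C1qb, C1ra, C1rb, C1s and C3) were higher and 0 lower, beside 11.2% and 20.2% of tested genes. The mice of the genotypes did not overlap for 6 genes, all higher in Trf2-/-, beside 22.3% of tested genes higher and 26.8% lower without overlap. Without Trf2-/- mouse 1 the median of the 9 was 0.37, and 4 genes had an adjusted p under 0.05 (beside 6.86% of tested genes, higher, in that fit).

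**Figure D3:**
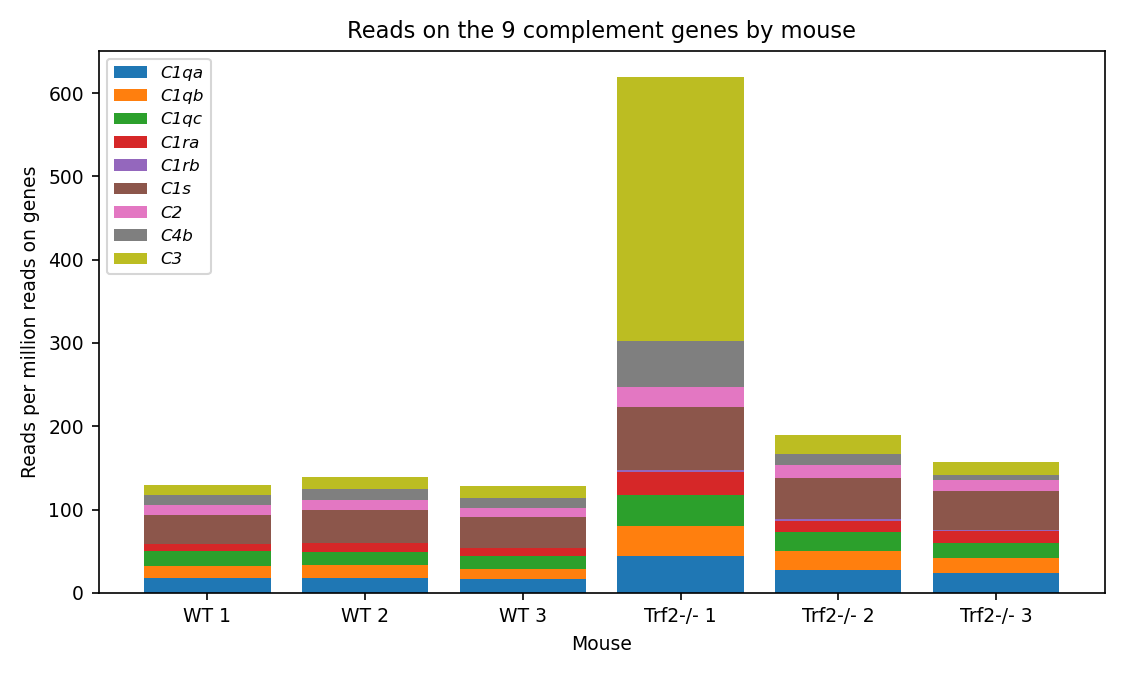
Reads on the 9 complement genes per 1000000 reads on all genes, stacked by gene, for each mouse. The WT bars reach 129 to 139, and the Trf2-/- bars 620, 190 and 157, with C3 as more of the bar than all the others together in Trf2-/- mouse 1.

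In absolute terms the genes were minor transcripts of the testis. They took 129 to 139 reads per 1000000 on genes in WT mice and 620, 190 and 157 in Trf2-/- mice 1 to 3. Divided by gene length, so that genes can be compared, the WT order was C1qa (17.4 CPM per kilobase), C1qb (13.4), C1s (11.3), C1qc (8.80), C1ra (3.29), C3 (2.78), C2 (2.59), C4b (2.41) and C1rb (0.127). C3 and C2, and C2 and C4b, overlapped across the 3 WT mice, and the other neighbours in this order did not. C1qa stood at the 71.8th percentile of the tested genes on this scale, C3 at the 34.4th and C1rb at the 1.35th. In CPM without division by length C1s came first, at 37.9. The gene length used was 1931 bases for C1qc and 4694 for C2, where their longest protein-coding transcripts had 1203 and 2641 bases. For C1qa both lengths were 1040 bases. The places of C1qc and C2 in the order per kilobase therefore depend on the length used.

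Promoter sequences are shown for C3, C1qb, C1qc and both C1r genes because these genes carry the extremes of the pattern. C3 had the largest excess in 1 mouse, the C1q chains had similar proportions, and C1rb against C1ra had a difference shared by all mutants. RefSeq promoters (build GRCm38, 250 bases before the annotated start to 50 after it) were matched for 6 of the 9 genes (not C1qa, C2 and C4b). The C1rb gene model that was counted starts at chr6:124462790, close to C1ra at chr6:124462423 (NCBIM37). The RefSeq window for C1rb, at chr6:124570180, lies well downstream of that for C1ra, at chr6:124512371 (GRCm38). It is therefore not at the start of the counted C1rb model, and the C1rb counts cannot be tied to it. Both strands were searched for a GAS motif (TTCNNNGAA), an ISRE (GAAANNGAAA), the ETS core bound by PU.1 (GAGGAA), a C/EBP motif (TTGCNNAA), an NF-kB motif (GGGANNNNCC) and a TATA box (TATAAA). GAS is read by STAT factors, ISRE by IRF and ISGF3 factors, PU.1 is a factor of the macrophage lineage, and C/EBP and NF-kB factors are known for acute phase genes. In the sequences, capitals mark the matches and all other bases are in lower case, 5′ to 3′ on the strand of the gene.
C3 (chr17:57228087-57228386, minus strand): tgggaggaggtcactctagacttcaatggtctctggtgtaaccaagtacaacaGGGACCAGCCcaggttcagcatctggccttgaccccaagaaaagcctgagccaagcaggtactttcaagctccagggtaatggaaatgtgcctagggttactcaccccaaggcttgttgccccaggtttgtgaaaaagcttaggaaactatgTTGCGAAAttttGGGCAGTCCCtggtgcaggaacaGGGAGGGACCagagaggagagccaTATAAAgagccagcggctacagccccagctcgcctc
C1qb (chr4:136886151-136886450, minus strand): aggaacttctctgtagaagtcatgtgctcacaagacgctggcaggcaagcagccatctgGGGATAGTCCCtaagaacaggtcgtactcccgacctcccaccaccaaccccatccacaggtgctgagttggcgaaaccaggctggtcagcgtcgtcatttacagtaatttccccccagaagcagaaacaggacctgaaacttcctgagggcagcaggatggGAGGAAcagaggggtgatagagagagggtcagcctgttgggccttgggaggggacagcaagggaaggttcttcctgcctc
C1qc (chr4:136892865-136893164, minus strand): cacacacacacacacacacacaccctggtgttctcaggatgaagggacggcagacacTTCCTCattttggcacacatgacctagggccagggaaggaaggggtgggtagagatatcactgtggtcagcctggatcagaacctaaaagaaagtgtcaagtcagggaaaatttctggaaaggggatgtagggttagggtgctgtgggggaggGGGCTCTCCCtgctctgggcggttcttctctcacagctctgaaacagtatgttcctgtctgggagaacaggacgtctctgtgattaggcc
C1ra (chr6:124512371-124512670, plus strand): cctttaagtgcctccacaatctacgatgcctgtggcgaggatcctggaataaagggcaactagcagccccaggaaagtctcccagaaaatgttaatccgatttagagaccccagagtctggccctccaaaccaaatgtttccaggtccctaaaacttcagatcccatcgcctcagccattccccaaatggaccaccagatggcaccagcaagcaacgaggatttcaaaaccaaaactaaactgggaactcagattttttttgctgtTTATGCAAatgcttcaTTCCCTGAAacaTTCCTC
C1rb (chr6:124570180-124570479, plus strand): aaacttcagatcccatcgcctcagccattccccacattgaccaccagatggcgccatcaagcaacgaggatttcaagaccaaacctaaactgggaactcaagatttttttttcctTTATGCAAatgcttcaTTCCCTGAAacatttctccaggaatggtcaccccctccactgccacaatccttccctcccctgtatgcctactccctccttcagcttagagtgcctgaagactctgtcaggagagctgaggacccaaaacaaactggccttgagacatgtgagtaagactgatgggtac

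The C3 window held a C/EBP match at -45 to -38, NF-kB matches at -197 to -188, -33 to -24 and -10 to -1, and TATAAA at 15 to 20 after the annotated start. C1qb and C1qc each held 1 ETS core, at -30 to -25 and, on the opposite strand, at -193 to -188. C1qb also had NF-kB matches on both strands that overlapped each other at -191 to -181, and C1qc had 1 at -40 to -31. C1ra and C1rb held the same pair of matches, C/EBP and GAS, at 17 to 24 and 33 to 41 in C1ra and at -135 to -128 and -119 to -111 in C1rb. That pair fell on different sides of the annotated starts, and the longest stretch of identical sequence between both windows was 34 bases. Over the 6 genes, NF-kB and C/EBP matches were each present in 4 (20.7% and 10.8% of 32851 promoters), ETS cores in 3 (28.3%), GAS in 2 (8.3%), TATAAA in 1 (13.6%) and the ISRE in 0 (3.44%). The GAS genes were C1ra and C1rb, whose C/EBP and GAS matches have the same letters and are not independent. C1s was counted over more than 1 window, and its C/EBP match lay in only 1, while the percentages are per promoter. No excess over those percentages is read from these counts. A match is a string of letters in the window and was not tested as a binding site.

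The rest of the complement system was described from lists of 49 symbols, of which 45 were in the table and 32 were tested. Of the 32, 23 had a log2 fold change above 0, beside 54.9% of all tested genes, and their median was 0.23. The other 13 had too few counts to be tested. None of the 32 met the 2-fold call in either direction by edgeR or DESeq2. By edgeR, 9 had an unadjusted p under 0.05 in the higher direction and 2 in the lower. Over all 16924 tested genes those counts were 3254 and 4079. With an adjusted p under 0.05 alone, 3 were higher and 2 lower, where 11.2% and 20.2% of all tested genes were, so neither count stood above the background. Without Trf2-/- mouse 1 these counts were 0 and 3, beside 6.86% and 17.2% of all tested genes.

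**Figure D4:**
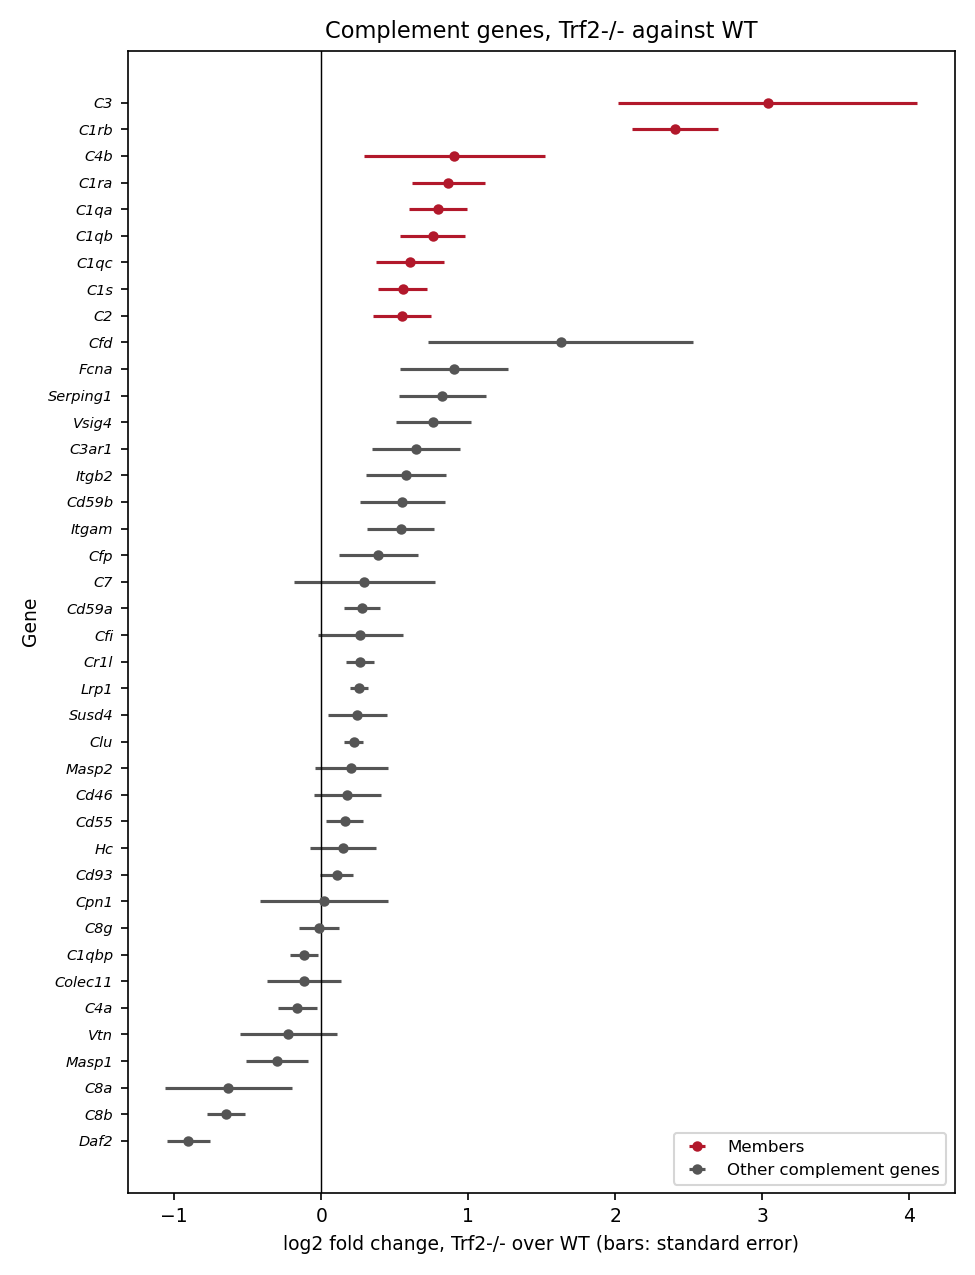
Fitted log2 fold change of Trf2-/- over WT with its standard error for the 9 complement genes chosen (red) and 31 of the tested genes from the rest of the system (grey). The red points run from 0.55 to 3.04, and the grey points from -0.91 for Daf2 to 1.63 for Cfd, whose error bar is among the widest.

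Among soluble regulators, Clu, which encodes clusterin, an inhibitor of the terminal complex made in large amounts by Sertoli cells, was at 1044 to 1165 CPM in WT and 1226 to 1373 CPM in Trf2-/- mice (log2 fold change 0.22 ± 0.06, adjusted p = 0.026 by edgeR), without overlap. The value without mouse 1 was 0.23 ± 0.07 (adjusted p = 0.0503 in that fit), and over all alternatives the adjusted p ran from 0.00621 to 0.103, above 0.05 also without WT mouse 1 or 3. Serping1, the C1 inhibitor, was at 29.2, 39.1 and 39.2 CPM in WT and 99.8, 42.9 and 46.0 CPM in Trf2-/- mice. It had its extreme in the mouse that was extreme for C3 and C4b, and did not pass the test (log2 fold change 0.82 ± 0.30, adjusted p = 0.0618 by edgeR, and 0.30 ± 0.13 without mouse 1).

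Receptors showed small differences. Lrp1, a large endocytic receptor with many ligands besides complement, was at 308 to 340 CPM in WT and 411, 361 and 379 CPM in Trf2-/- mice (0.25 ± 0.06, adjusted p = 0.0129 by edgeR). Vsig4, a macrophage receptor for C3 fragments, was at 4.77, 3.22 and 3.74 CPM in WT and 9.28, 5.02 and 5.50 CPM in Trf2-/- mice (0.76 ± 0.25, adjusted p = 0.049). For both the genotypes did not overlap. Without mouse 1 the log2 fold changes were 0.19 ± 0.06 and 0.40 ± 0.19 and neither passed (adjusted p = 0.0597 and 0.167). Over all alternatives the adjusted p ran from 0.00274 to 0.0638 for Lrp1, which also lost its call without WT mouse 1 or 2, and from 0.0145 to 0.167 for Vsig4, which lost it with any WT mouse left out, with DESeq2 size factors (0.0533) and with at least 10 counts in every mouse (0.0553). C3ar1, the receptor for C3a, was at 2.96, 3.49 and 4.27 CPM in WT and 8.37, 4.2 and 3.79 CPM in Trf2-/- mice (log2 fold change 0.64 ± 0.30, adjusted p = 0.131, and 0.17 ± 0.20 without mouse 1), and its genotypes overlapped.

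Daf2 and C8b were the genes that passed the test in the lower direction. Daf2, which encodes a testis form of decay accelerating factor that takes C3 convertases apart on the cell surface, was at 48.5, 51.9 and 53.3 CPM in WT and 29.7, 31.9 and 19.6 CPM in Trf2-/- mice (-0.91 ± 0.15, adjusted p = 0.00213 by edgeR). C8b, a chain of the C8 protein of the membrane attack complex, was at 15.1, 13.5 and 12.5 CPM in WT and 9.32, 9.52 and 7.27 CPM in Trf2-/- mice (-0.65 ± 0.13, adjusted p = 0.00559). Neither gene overlapped between genotypes, and in both mouse 1 lay with the other mutants. Without it the log2 fold changes were -0.98 ± 0.18 and -0.71 ± 0.15. C7, another part of that complex, was at 12.8, 11.8 and 12.7 CPM in WT and 30.1, 8.19 and 6.32 CPM in Trf2-/- mice, so that mouse 1 was above and mice 2 and 3 below every WT mouse. Its log2 fold change was 0.29 ± 0.48 (adjusted p = 0.67) with all mice and -0.77 ± 0.14 (adjusted p = 0.00833) without mouse 1. As for C4b, mutants 1 and 3 lay on opposite sides of the WT mice.

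The lectin and alternative pathways gave low values. The lectin pathway proteases Masp1 and Masp2 were at 1.22 to 3.35 CPM in WT mice and 1.54 to 2.90 CPM in Trf2-/- mice, and the lectins Mbl1 and Mbl2 were at 0.153 CPM or less in every mouse. Cfb, factor B of the alternative convertase, was too low to be tested, at 0.288 to 0.383 CPM in WT mice and 1.94, 0.129 and 0.126 CPM in Trf2-/- mice, and it again peaked in mouse 1. Of its exon bases, 79.5% also belong to the readthrough model shared with C2. Cfd, factor D, which fat cells make in quantity, was at 0, 2.30 and 1.39 CPM in WT and 1.63, 7.80 and 1.52 CPM in Trf2-/- mice, and peaked in mouse 2. Adipocyte markers peaked there too, at 39.2 CPM summed over 8 genes, against 10.5 to 20.2 CPM in WT and 21.1 and 13.3 CPM in Trf2-/- mice 1 and 3, and their part in the Cfd value was not tested.

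**Figure D5:**
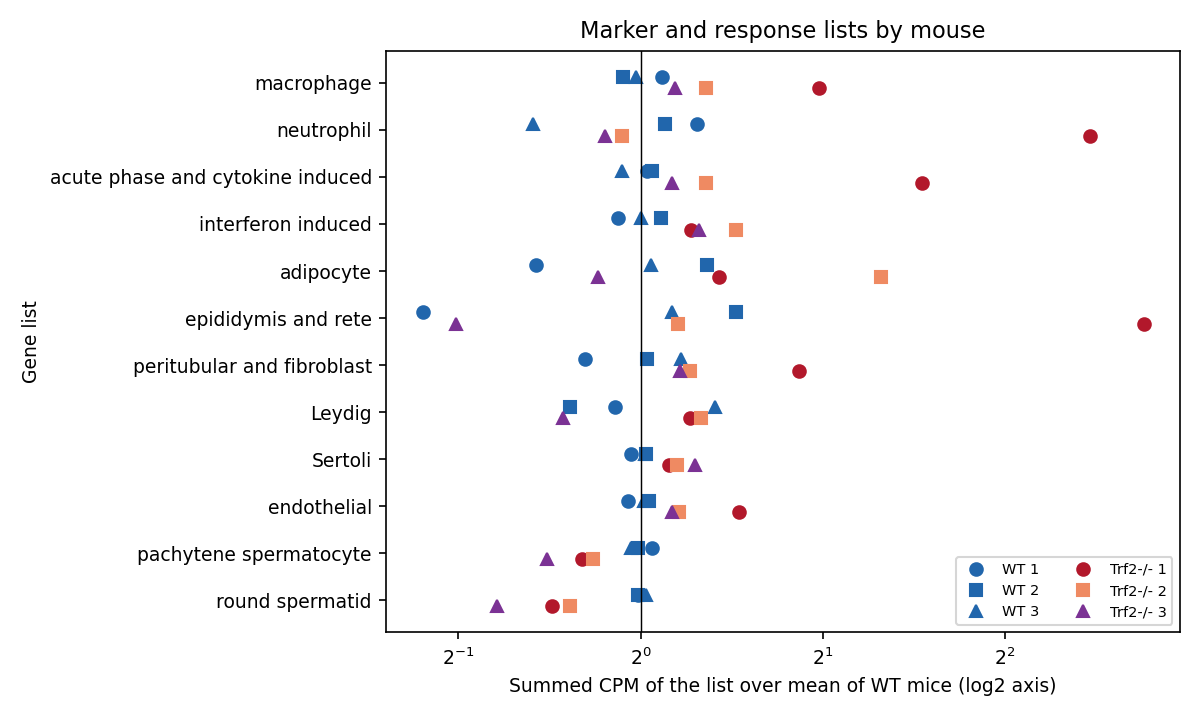
Summed CPM of each list of marker or response genes divided by its mean in the WT mice, on a log2 axis, for the 3 WT mice (blue) and the 3 Trf2-/- mice. Trf2-/- mouse 1 (red) is the highest mouse for the macrophage, neutrophil, acute phase, epididymis and rete, peritubular and fibroblast, and endothelial lists, and mouse 2 (orange) for the adipocyte list.

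Other genes moved with the complement genes across the mice. Macrophage markers, which bear on C1q, were all highest in Trf2-/- mouse 1 (10 of 10, beside 17.7% of all tested genes). Their summed levels were 196 to 228 CPM in WT mice and 415, 270 and 240 CPM in Trf2-/- mice 1 to 3. Of the 10, 4 passed the test in the higher direction (Csf1r, Emr1, Lyz2 and Mpeg1), and 3 did without mouse 1. These counts stand beside 11.2% and 6.86% of all tested genes. Mpeg1, a pore-forming protein of macrophages, was at 37.1 to 40.4 CPM in WT and 65.4, 57.4 and 62.2 CPM in Trf2-/- mice (log2 fold change 0.67 ± 0.07, adjusted p = 0.000402 by edgeR, and 0.61 ± 0.07 without mouse 1). Mrc1, the mannose receptor of resident macrophages, was at 80.1 to 92.5 CPM in WT and 121, 92.0 and 71.8 CPM in Trf2-/- mice (0.16 ± 0.16, adjusted p = 0.466, and -0.07 ± 0.12 without mouse 1). Divided by the summed macrophage markers, the C1q sum was 0.224 to 0.259 in WT mice and 0.277, 0.263 and 0.242 in Trf2-/- mice. Their part in the C1q values was not tested.

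Acute phase and cytokine-induced genes, which bear on C3 and C4b, had their highest sum in Trf2-/- mouse 1. Only 6 of the 11 genes peaked there, beside 17.7% of all tested genes. The sum was 77.1 to 86.3 CPM in WT mice and 241, 106 and 93.2 CPM in Trf2-/- mice. All 6 tested genes of the list had a log2 fold change above 0, beside 54.9% of all tested genes. Of the 6, 3 were past the 2-fold call, higher (Hp, Lcn2 and Serpina3n), beside 0.609%. Lcn2, an iron-sequestering protein of innate defence, was at 2.49 to 3.45 CPM in WT and 27.0, 6.22 and 4.24 CPM in Trf2-/- mice (log2 fold change 2.1 ± 0.62, adjusted p = 0.0315 by edgeR). Serpina3n, a secreted protease inhibitor, was at 5.47 to 7.47 CPM in WT and 72.9, 10.5 and 10.1 CPM in Trf2-/- mice (2.25 ± 0.72, adjusted p = 0.0412). Both were above every WT mouse in all 3 mutants, but without mouse 1 their log2 fold changes were 0.82 ± 0.22 and 0.62 ± 0.15, and neither met the 2-fold call. Hp, haptoglobin, was at 0.383, 1.23 and 0.72 CPM in WT and 3.65, 3.73 and 0.948 CPM in Trf2-/- mice (1.89 ± 0.52, adjusted p = 0.0232). Its genotypes overlapped, mouse 2 was its highest, and without mouse 1 it kept a log2 fold change of 1.67 ± 0.60 but not the call (adjusted p = 0.0786). Saa3, a serum amyloid A made locally in inflamed tissue, was at 0.115 CPM or less in WT and 23.1, 0.214 and 0.126 CPM in Trf2-/- mice. It was not tested, since it was near 0 in every mouse but Trf2-/- mouse 1 and so did not pass the filter.

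The interferon-induced list behaved otherwise. Its sum was 93.1 to 110 CPM in WT mice and 123, 146 and 127 CPM in Trf2-/- mice 1 to 3, so mouse 1 was not the highest. All 10 tested genes of the list had a log2 fold change above 0, beside 54.9% of all tested genes. Of the 10, 3 passed the test, higher (Irf1, Psmb8 and Tap1), and 4 did without mouse 1, beside 11.2% and 6.86%. Psmb8, a subunit of the immunoproteasome, was at 1.39 to 1.69 CPM in WT and 5.28, 4.67 and 2.28 CPM in Trf2-/- mice (1.42 ± 0.29, adjusted p = 0.00658 by edgeR, and 1.19 ± 0.31 without mouse 1). Like C1rb, it was higher in every mutant rather than chiefly in 1.

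Markers of other tissues differed in Trf2-/- mouse 1 as well. The epididymis and rete list summed to 3.90 to 12.9 CPM in WT mice and 60.7, 10.3 and 4.42 CPM in Trf2-/- mice. Crisp1, a secreted protein of the epididymis, gave most of this, with 0.0697, 7.47 and 5.90 CPM in WT and 47.0, 5.10 and 0 CPM in Trf2-/- mice, while Gpx5, Lcn8, Lcn9 and Rnase10 were at 0.192 CPM or less in every mouse. The peritubular and fibroblast list summed to 1117 to 1612 CPM in WT and 2529, 1666 and 1607 CPM in Trf2-/- mice, with Dcn, a matrix proteoglycan, at 143 to 172 CPM against 412, 217 and 216 CPM. Neutrophil markers were near 0, with sums of 0.672 to 1.25 CPM in WT and 5.59, 0.943 and 0.885 CPM in Trf2-/- mice, of which Mpo gave 2.42 CPM in mouse 1. The lymphocyte lists were low throughout, at 4.61 to 7.82 CPM summed for 7 T cell genes and 1.01 to 3.38 CPM for 5 B cell genes. The part of these tissues in the complement values of Trf2-/- mouse 1 was not tested.

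Leydig, Sertoli and spermatocyte lists did not single out mouse 1. Of 7 genes each, 1 Leydig and 3 Sertoli markers passed the test in the higher direction, and the 7 pachytene spermatocyte markers held 1 higher and 5 lower. Among 6 endothelial markers 1 passed, in the higher direction, as did 4 of 9 peritubular and fibroblast markers, 1 of 7 tested adipocyte markers and 1 of 5 tested epididymis and rete markers, all beside 11.2% of tested genes higher and 20.2% lower. Without mouse 1, the markers that passed in the higher direction were 0 of Leydig, 2 of Sertoli, 1 of spermatocyte (with 4 lower), 1 of endothelial, 2 of peritubular and fibroblast, 1 of adipocyte and 0 of epididymis and rete, beside 6.86% of tested genes.

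The genes whose profiles over the 6 mice were most like that of C3 were BC055004, Serpina3n, Ccl8, Lcn2 and Cwh43, with Pearson r of log2 CPM from 0.95 to 0.98. They were sought among 106 genes whose log2 CPM had an SD of at least 1, which a gene can reach through Trf2-/- mouse 1 alone. Ccl8, a monocyte-attracting chemokine, had 6, 10 and 2 counts in WT and 494, 33 and 15 counts in Trf2-/- mice. The summed C1q level was most like Ctss, Emr1, Unc93b1, Lcn2 and Pld4, with r from 0.992 to 0.997 among 3335 genes with an SD of at least 0.3. Ctss, the lysosomal protease cathepsin S, was at 9.45 to 11.5 CPM in WT and 35.8, 16.9 and 12.5 CPM in Trf2-/- mice, the same order of mutants as C1q. These correlations share the 6 libraries and rest largely on Trf2-/- mouse 1.

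Among the 9 genes themselves, C1qa and C1qb gave r = 0.99 over the 6 mice and 0.97 without Trf2-/- mouse 1, and C1s and C2 gave 0.99 and 0.95. C4b parted from the rest once that mouse was left out. Its r with C3 went from 0.90 to 0.16, and with C1ra from 0.71 to -0.62. These are descriptions of 6 and 5 libraries.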

How the data were processed

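RNA was extracted from whole testes with Tri Reagent, depleted of ribosomal RNA, made into stranded libraries and sequenced as single reads of 50 bases. The authors deposited HTSeq 0.5.4p3 read counts per gene, after mapping with TopHat2 2.0.10 to mm9 (NCBIM37), as the submitters' processing notes list these tools. Whether the counting used strand is not given in the sources used here. The deposited table also holds gene lengths, 12 normalized columns that were not used, and the authors' own comparison columns, fold changes and p-values, which were left out.

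Counts as deposited were filtered (filterByExpr), scaled by TMM and tested with edgeR 4.0.16 (quasi-likelihood test, Benjamini-Hochberg adjustment over 16924 genes) in R 4.3.3, on genotype alone with 3 mice each. A call needed an adjusted p under 0.05 and a change of at least 2-fold. Standard errors were taken from the log2 fold change and its F statistic. The fit was tested on simulated data. DESeq2 1.42.0, other scalings and filters, a replicate block and each mouse left out were the alternatives. Likeness was the correlation of log2(CPM + 0.5). Sequence shared between genes was searched in the protein-coding GENCODE transcripts of NCBIM37, with those of C4a added. Counts of pairs of libraries differed beyond sampling noise. The p-values set the genotype difference against a variance between mice that was estimated with information from all genes. They treat the mice as independent, and the labels do not say whether the mice are littermates.

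The members and the gene lists were chosen with earlier results of these data known. All 9 members were named, and of the other lists those with an adjusted p under 0.05 plus a few abundant or defining genes. In these lists 1 gene is counted but not reported here.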

Additional observations from a re-analysis of the deposited data

How the results depend on the processing

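The count of complement genes called was 2 in the analysis as reported, where C3 had an adjusted p of 0.0495 by edgeR. It was 1 with DESeq2 size factors, with the DESeq2 Wald test and at an adjusted p of 0.01, and 6 with no fold threshold. The DESeq2 Wald test gave C3 a log2 fold change of 3.01 ± 1.22 but no adjusted p. When at least 10 counts were required in every mouse the count was 0. That filter removed C1rb and left C3 at an adjusted p of 0.0558 by edgeR. With each mouse left out in turn it ran from 1 (Trf2-/- mouse 1 or any WT mouse) to 4 (Trf2-/- mouse 3). The other complement genes called higher, 0 as reported, were 3 with no fold threshold and 0 to 2 with each mouse left out (1 for Trf2-/- mouse 2, 2 for Trf2-/- mouse 3); those called lower, also 0, were 2 and 0 to 1 (Trf2-/- mouse 2). The log2 fold change of C4b turned from 0.90 to -0.48 without Trf2-/- mouse 1 and was 1.34 without Trf2-/- mouse 3. Leaving out mouse 1 took C3 from 3.04 to 0.37. The WT order of levels moved for 7 of the 9 genes when CPM was not divided by length.

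Over all tested genes, 103 were called higher, against 158 by library size alone, 159 with no filter, 61 with at least 10 counts in every mouse, 1889 with no fold threshold, 32 at an adjusted p of 0.01 and 53 to 177 with each mouse left out (WT mouse 1 gave 53, Trf2-/- mouse 1 gave 54 and Trf2-/- mouse 3 gave 177). Those called lower, 727, became 436 with at least 10 counts in every mouse and 3423 with no fold threshold. The cause of these changes was not tested.

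Same-numbered mice did not deviate together (r = -0.06, -0.08 and -0.08, against 0.01 to 0.05 for the other WT and Trf2-/- pairs). Taken from means of 3 mice, such deviations cannot tell whether the numbers pair the mice. With a replicate block, 1 complement gene was called, 4 passed the adjusted p alone, and C3 was at 1.79. Depth limited C1rb, with 5 to 10 counts in WT mice, and left 13 other complement genes untested.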
